A study of Mus musculus with 1 sample.

Results

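The 7 genes described here belong to the interleukin-1 (IL-1) system and were measured across the alveolar macrophages (AMs) of a single-cell RNA-seq library. They are the agonists Il1a and Il1b, the receptor antagonist Il1rn, the related cytokine Il18, the protease Casp1, the inflammasome sensor Nlrp3 and the receptor subunit Il1rap. They were chosen by name, and all 7 are among the 11918 genes that the deposited values list. The cells came from the lungs of 1 adult mouse with the genotype Hdac3 fl/fl and no Cre, labelled wild-type, 8 to 12 weeks old, of an FVB/NJ strain backcrossed to C57BL/6 for over 10 generations. AMs, the macrophages that live in the airspaces of the lung, were released by collagenase D digestion and sorted as CD45+CD11c+SiglecF+ cells, of which 5000 were loaded. With 1 library there is no replicate, so no test was made, and every interval below is a 95% interval that covers the counting of UMIs or cells only. The library with Hdac3 deleted was not analysed here. Its Cre driver is given as Csf1rCre in the series text and as Cd11c-Cre in the text of the study, and the mouse described here carried no Cre.

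IL-1α and IL-1β bind the same receptor, IL1R1, which signals once it has recruited the accessory protein encoded by Il1rap. IL1RN occupies that receptor without signalling, so the outcome for a responding cell depends on the balance of agonist and antagonist. IL-1β and IL-18 are made as precursors that caspase-1 cuts after an inflammasome such as NLRP3 has assembled, whereas the IL-1α precursor is active as made. Macrophages are known to induce Il1b and Nlrp3 transcription on stimulation and to hold Il18 transcript at rest. Transcript counts therefore describe the supply of precursors and not secreted cytokine.

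The library held 2055 cells with 1143 to 8603 UMIs each (median 3278), where a UMI (unique molecular identifier) marks 1 captured transcript molecule. Levels are given as UMIs of a gene per 10000 UMIs of all genes. Intervals of levels, of their ratios and of shares of UMIs take each UMI as an independent draw. They are too narrow for a gene whose UMIs are concentrated in few cells. Because the 10x Genomics 3′ assay counts each transcript once at its 3′ end, these levels do not scale with transcript length, but they cannot separate isoforms with a common 3′ end. All 16 AM markers examined were found in at least 5% of cells, with Chil3 in 100% and Itgax, which encodes CD11c, in 61.1%. Of 9 neutrophil markers 3 were listed, S100a8 in 10.1% of cells and Csf3r and Cxcr2 in 3.16% and 0.389%. Dendritic cell markers (3 of 6 listed) and interstitial macrophage markers (5 of 7) were each found in at most 2.63% of cells. A plasma cell gene, Jchain, had 940 of its 1006 UMIs in 1 cell and a UMI in 65 other cells (3.16%), and of 6 epithelial markers Sftpc had a UMI in 6.86% of cells, Epcam in 58.1% and the others in at most 5.50%. Of the 4 monocyte markers listed, Fn1 was found in 52.7% of cells and the others in at most 1.36%. No cell type that should lack the 7 genes is present in sufficient number to give their background from free RNA, and that background was not measured.

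Il1a and Il1b lie 54597 bases apart on chromosome 2, both on the minus strand (GRCm38, GENCODE M21), at chr2:129299610-129309972 and chr2:129364570-129371139. Il1rn is on the plus strand of the same chromosome (chr2:24336853-24351494). The promoters of the agonists, of the antagonist and of Il18 are shown because these are the cytokine genes, which ranged from few cells to nearly all. Each is 300 bases of RefSeq sequence on GRCm38.p6, from 250 bases before a transcription start to 50 after, written on the strand of the gene, with matches to 4 motifs in capitals. The letters sought were TATAAA for the TATA box, TGANTCA for AP-1, GGG and CC with 5 bases of any kind between them for NF-kB and GAGGAA for PU.1, each sought on both strands, and no match overlapped a match to another motif in these promoters.
Il1a, chr2:129309923-129310222, minus strand: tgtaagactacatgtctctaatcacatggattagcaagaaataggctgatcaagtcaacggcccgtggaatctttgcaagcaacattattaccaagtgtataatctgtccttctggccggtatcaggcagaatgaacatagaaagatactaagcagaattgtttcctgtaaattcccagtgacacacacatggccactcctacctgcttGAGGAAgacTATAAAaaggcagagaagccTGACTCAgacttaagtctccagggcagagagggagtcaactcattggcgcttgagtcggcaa
Il1b, chr2:129371090-129371389, minus strand: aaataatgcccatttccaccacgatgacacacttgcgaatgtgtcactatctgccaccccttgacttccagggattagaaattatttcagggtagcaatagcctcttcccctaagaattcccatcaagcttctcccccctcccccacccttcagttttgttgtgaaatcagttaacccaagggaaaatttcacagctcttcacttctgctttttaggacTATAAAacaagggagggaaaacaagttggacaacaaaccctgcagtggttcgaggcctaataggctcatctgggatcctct
Il1rn (the most upstream of 3 starts), chr2:24336610-24336909, plus strand: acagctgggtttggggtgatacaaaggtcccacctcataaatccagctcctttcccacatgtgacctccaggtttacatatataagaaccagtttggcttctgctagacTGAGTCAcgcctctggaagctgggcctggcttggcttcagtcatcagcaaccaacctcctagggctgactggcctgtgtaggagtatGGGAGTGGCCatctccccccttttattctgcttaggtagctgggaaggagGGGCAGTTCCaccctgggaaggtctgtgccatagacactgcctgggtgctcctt
Il18, chr9:50554450-50554749, plus strand: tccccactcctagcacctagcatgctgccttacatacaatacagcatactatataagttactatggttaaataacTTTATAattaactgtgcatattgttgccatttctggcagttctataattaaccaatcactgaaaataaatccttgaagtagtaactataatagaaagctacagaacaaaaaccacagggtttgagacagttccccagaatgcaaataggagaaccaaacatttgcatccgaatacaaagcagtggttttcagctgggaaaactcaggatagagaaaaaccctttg
Both agonists had TATAAA on the strand of the gene, beginning 32 bases before the start in Il1a and 31 bases in Il1b. Over 32851 mouse promoters of this length, 13.6% held TATAAA or its complement, and 1.91% held it on the strand of the gene beginning 25 to 40 bases before the start. Il18 held it only on the opposite strand, 175 bases before the start, and the Il1rn promoter shown did not hold these letters. AP-1 letters were found in Il1a (12 bases before the start) and in the Il1rn promoter shown (141 bases before it), against 7.81% of all promoters. NF-kB letters are common (50.8% of promoters) and were found at 2 places in the Il1rn promoter shown, while PU.1 letters (28.3% of promoters) were found in Il1a. The promoters of the other Il1rn starts held NF-kB letters and no AP-1 letters, and the most downstream held TATAAA on the opposite strand. These matches are letters in a window and were not tested as sites.

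Il18 was the only member found in most cells. It had 9399 UMIs, a level of 13.01 per 10000 (12.8 to 13.3), and at least 1 UMI in 93.0% of cells (91.8 to 94.1). The median cell with the transcript held 4 UMIs, 888 cells held 5 or more, and the highest held 24. It ranked 102 among the 11918 genes by level, and that level was 6.72 times that of Il1b, the next of the 7. The 144 cells with no Il18 UMI had a median of 1958.5 UMIs in all, against 3403 in the others, and 37.5% of them had over 5% mitochondrial UMIs, against 17.3%. The summed level of the AM markers was 282 per 10000 in these 144 cells and 319 in the other cells.

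The other 6 members formed a lower range in which detection did not simply follow level. Il1b had 1398 UMIs, a level of 1.94 per 10000 (1.84 to 2.04), and a UMI in 32.5% of cells (30.5 to 34.6). Il1rn had 1279 UMIs and a level of 1.77 (1.68 to 1.87), which overlaps that of Il1b, yet it was found in 39.95% of cells (37.8 to 42.1). Thus the agonist with the higher level was found in fewer cells than its antagonist. Nlrp3, with 1105 UMIs and a level of 1.53 (1.44 to 1.62), was found in 37.0% (34.9 to 39.2). Il1a was lower, with 476 UMIs, a level of 0.659 (0.601 to 0.721) and 16.4% of cells (14.9 to 18.1). The intervals of neighbouring levels overlapped for Il1b and Il1rn and for no other neighbours in the order Il18, Il1b, Il1rn, Nlrp3, Il1a, Casp1, Il1rap.

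Casp1 and Il1rap were the least abundant. Casp1 had 309 UMIs, a level of 0.428 (0.381 to 0.478) and a UMI in 13.1% of cells, with no cell above 3. Il1rap had 222 UMIs, a level of 0.307 (0.268 to 0.351) and a UMI in 9.88% of cells (8.62 to 11.3), again with at most 3 per cell. For comparison, Sftpc, a surfactant protein gene of alveolar epithelial cells, had a level of 0.238 in the same cells, so the Il1rap level stood little above it. The chain that binds the ligand, Il1r1, had 8 UMIs in 8 cells, and the decoy receptor Il1r2 had 15 in 11. Another receptor gene of the IL-1 family, Il1rl2, had 138 UMIs in 129 cells (6.28%). Il18bp, which encodes the binding protein that neutralises IL-18, had 27 UMIs in 25 cells, against the 9399 UMIs of Il18.

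**Figure D1:**
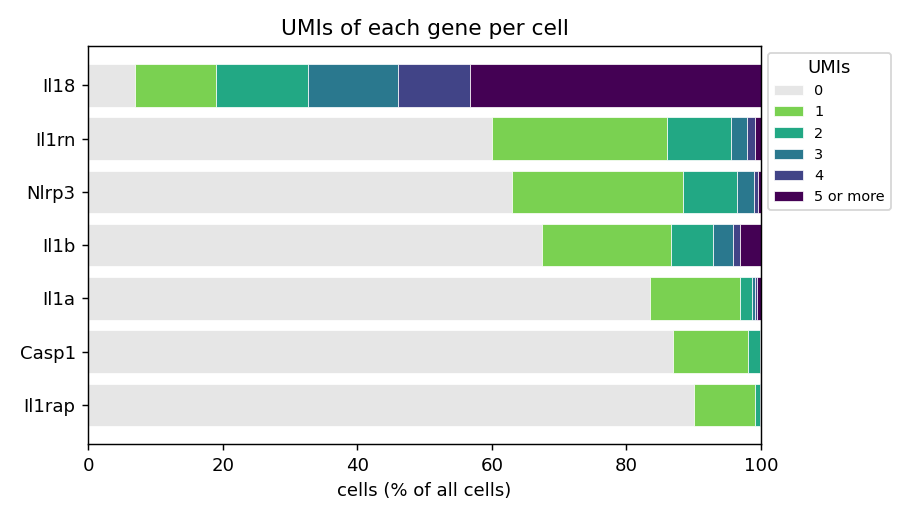
Number of UMIs of each gene per cell, as a percentage of the 2055 cells, with genes ordered by the share of cells with a UMI. Il18 had no UMI in 7.01% of cells and 5 or more in 43.2%, whereas Il1b had none in 67.5% and 5 or more in 3.11%.

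To separate genes that were merely low from genes held by few cells, the share of cells with a UMI was set against the share that the same number of UMIs would reach if every cell drew them at 1 common rate per UMI. A ratio near 1 means an even spread, and the median over the 5945 genes found in at least 5% of cells was 0.987. Il1b reached 32.5% of cells where 47.4% would have been reached, a ratio of 0.686. Of the 461 genes within 5 percentage points of its share, 4 had a lower ratio. Il1a reached 16.4% where 20.3% would have been reached (0.810), and 14 of 1604 comparable genes were lower. Both agonists were thus concentrated in a minority of cells beyond what their low levels imply, so the intervals of their levels are too narrow.

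The antagonist and the sensor lay between. The ratio was 0.896 for Il1rn, with 16 of 353 comparable genes lower, and 0.922 for Nlrp3, with 26 of 396 lower. The ratio was nearer 1 for Casp1 (0.949, 131 of 2240 lower), Il18 (0.963, 17 of 114 lower) and Il1rap (0.973, 684 of 3054 lower), where the median of genes with a like share was 0.988, 0.979 and 0.990. Casp1 nevertheless ranked as low among its comparable genes as Nlrp3 did, so that of the genes found in few cells Il1rap alone lay well within the range of like genes.

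Counts per cell show the same contrast between Il1b and Il1rn, which have similar totals. At 2 or more UMIs the cells numbered 274 for Il1b and 288 for Il1rn, but at 5 or more they numbered 64 and 17, and the highest cell held 22 and 11. The 206 cells with most UMIs of each gene (10%) held 62.1% of all Il1b UMIs, 45.5% of Il1rn and 46.9% of Nlrp3. For Il18 the figure was 26.5%. Of the 338 cells with Il1a, 276 held 1 UMI, 62 held 2 or more and 11 held 5 or more, and the top 21 cells (1%) held 23.3% of its UMIs.

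**Figure D2:**
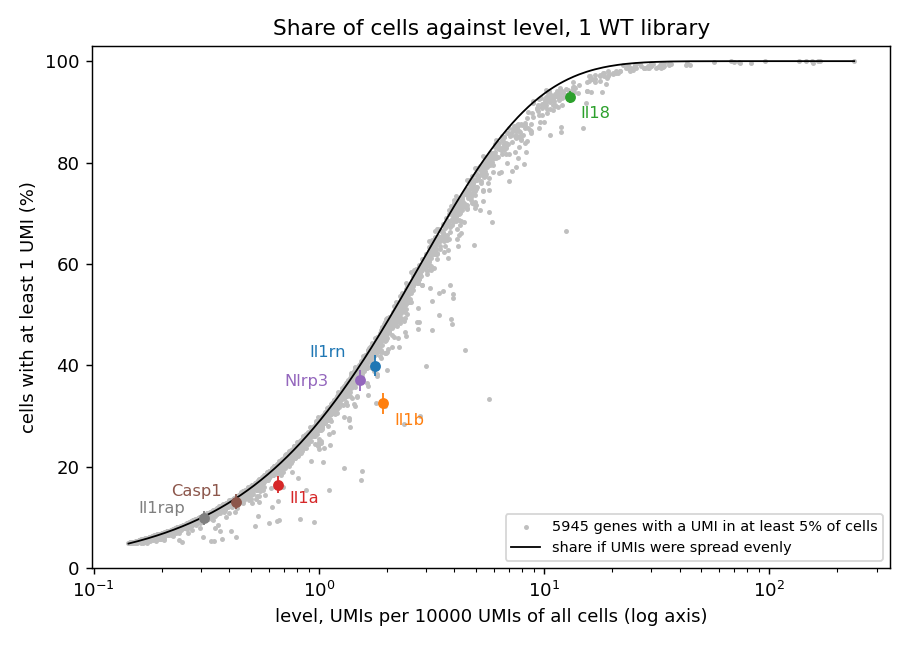
Share of cells with at least 1 UMI (vertical axis, %) against level (horizontal log axis, UMIs per 10000) for 5945 genes in grey and the 7 members in colour with 95% binomial intervals, and the share that an even spread would give as a line. Il1b (32.5% of cells), Il1a (16.4%), Il1rn and Nlrp3 lie below the line, and Casp1 and Il1rap lie near it.

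The levels of 3 members moved with sequencing depth. Cells were divided into 4 groups of depth with medians of 1895.5, 2837, 3747 and 5423.5 UMIs. The level of Il18 was 10.6, 12.1, 13.3 and 14.1 per 10000 from the shallowest group to the deepest, and that of Casp1 was 0.293, 0.351, 0.470 and 0.483, where the intervals of the shallowest and deepest groups overlapped. Nlrp3 went the other way, at 1.93 (1.66 to 2.23), 1.65, 1.36 and 1.45 (1.31 to 1.60). Il18 and Casp1 were also lower in the 384 cells with over 5% mitochondrial UMIs than in the other 1671, with levels of 10.8 against 13.4 for Il18 and 0.285 against 0.455 for Casp1. The part of depth and of mitochondrial content in these levels was not tested. Il1b ranged only from 1.83 to 2.06 and Il1a from 0.612 to 0.718 over the 4 depth groups, without an order.

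Counted over all 7 genes, the median cell held UMIs of 2 members, 45 cells of none and 1 cell of all 7. Cells with a single member numbered 439 and cells with 2 members 701 (34.1%), and median depth went from 1773 UMIs in cells with none to 4900 in cells with 5. Joint detection was therefore compared with the number of cells that would hold both of 2 genes if the 2 were found independently within each of 10 bins of depth, since a deep cell shows more of every gene. The interval of a ratio treats the number of cells with both genes as free and does not fix the numbers with each gene, so it is wide. Among the 21 pairs of members, 4 had an interval above 1 and none below. None of the 4 kept it without the 206 cells highest for chemokine and TNF genes, which are described further on. Each of the 4 ratios stayed above 1 without those cells. All 4 joined an agonist to the antagonist or to Nlrp3. Il1a and Il1rn were found together in 174 cells where 146 would be so by depth alone (ratio 1.19, 1.03 to 1.37), and Il1a and Nlrp3 in 167 where 136 would be (1.23, 1.05 to 1.42). Such an interval above 1 was reached with Il1a by 0.858% of all 5944 other genes, with Il1b by 0.892%, with Il1rn by 0.606% and with Nlrp3 by 0.673%. It was reached with Casp1 by 0.622% and with Il1rap by 0.656%, and no member was among those genes.

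Il1b was found with Il1rn in 327 cells against 286 (1.14, 1.03 to 1.26) and with Nlrp3 in 303 against 265 (1.14, 1.02 to 1.27). The agonists themselves were found together in 139 cells against 119, a ratio of 1.17 whose interval reached below 1 (0.988 to 1.37). The levels differed more than the detection did. Il1b stood at 3.26 per 10000 (2.96 to 3.58) in cells with Il1a and at 1.63 (1.53 to 1.74) in cells without it, and the 11 cells with 5 or more Il1a UMIs had an Il1b level of 10.5 (7.88 to 13.6). All of Il1a, Il1b and Il1rn were found in 89 cells, against 54.7 by depth (ratio 1.63, 1.31 to 1.99).

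Pairs with Il18 gave ratios of 0.977 to 1.01, as they must for a gene found in nearly every cell, and no gene had an interval above 1 with Il18 (0% of 5944). Casp1 had its lowest ratios with Il1a (41 cells against 52.1, 0.787, 0.567 to 1.06), Nlrp3 (96 against 112, 0.858, 0.698 to 1.04) and Il1rn (104 against 120, 0.869, 0.713 to 1.05), and each interval included 1. The transcripts needed for processing of IL-1β, those of Nlrp3, Casp1 and Il1b, were found together in 40 cells (1.95%, 1.39 to 2.64) against 43.1 by depth. Il18 with Nlrp3 and Casp1 was found in 92 cells (4.48%) against 109. Neither number differed from that by depth beyond its interval (0.665 to 1.26 and 0.684 to 1.03 as ratios). At these levels a transcript can be present in a cell without giving a UMI, so a cell without joint detection is not a cell without both transcripts.

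**Figure D3:**
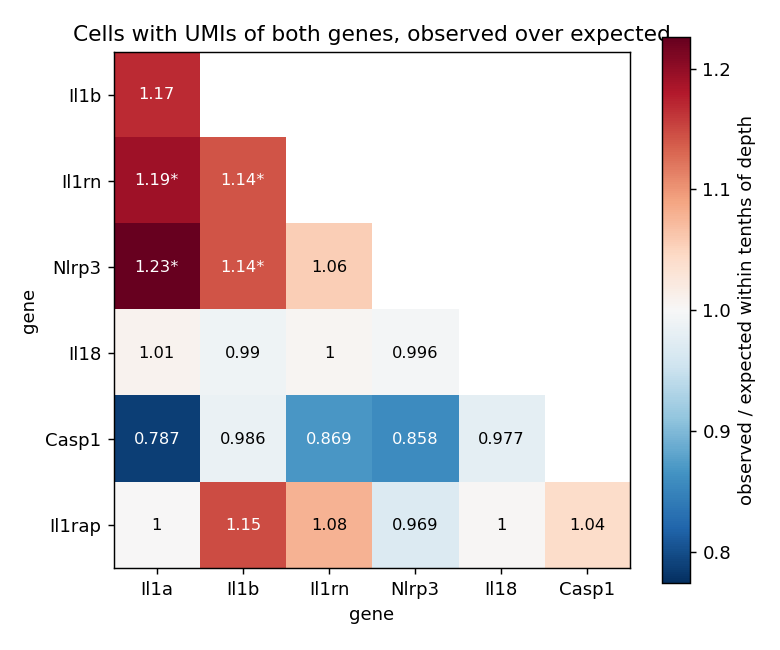
Observed over expected number of cells with UMIs of both genes for the 21 pairs, where the expected number assumes independence within 10 bins of depth. Red is above 1, blue is below 1, and a star marks the 4 pairs whose 95% interval excludes 1, among them Il1a with Nlrp3 (1.23) and Il1b with Il1rn (1.14).

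The balance of agonist and antagonist was taken as the share of agonist UMIs among all UMIs of Il1a, Il1b and Il1rn. Pooled over cells, 1874 of 3153 UMIs were of an agonist, or 59.4% (57.7 to 61.2). By cells, 455 (22.1%) held an agonist only, 409 (19.9%) the antagonist only, 412 (20.0%) both and 779 (37.9%) neither. Cells with the agonist alone and with the antagonist alone were thus about as common as each other, with intervals of 20.4 to 24.0 and 18.2 to 21.7. Both sides were found in 412 cells where 369 would be by depth (ratio 1.12, 1.02 to 1.22). The agonist share did not follow depth, at 58.4%, 57.3%, 61.9% and 59.3% in the 4 depth groups.

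A cell with 1 UMI can show only 1 side, so the 710 cells with at least 2 UMIs of the 3 genes were also examined. Of these, 164 held agonist UMIs only, 134 antagonist UMIs only and 412 both. If every UMI in these cells were of an agonist with the pooled probability of 59.4%, the numbers would be 165, 68.0 and 477. Against this pooled probability, cells with the antagonist alone were more numerous and mixed cells were fewer. Cells with the agonist alone came to the number it gives. The pooled probability counts UMIs and not cells, so cells with many Il1b UMIs weigh more in it. The comparison therefore cannot separate a balance that differs between cells from the uneven spread of Il1b, and this was not tested. The excess of cells with both sides over that by depth, given above, was set against independent detection and is another comparison. More agonist than antagonist UMIs were found in 606 cells, the reverse in 490, and equal numbers above 0 in 180.

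To describe where the members were high, cells were ranked by the summed level of 4 gene lists that hold no member, and the 206 cells at the top (10%) were compared with the other 1849. The lists were 6 chemokine and TNF genes (Tnf, Cxcl1, Cxcl2, Cxcl3, Ccl3 and Ccl4), 11 immediate early genes such as Fos, Egr1 and Dusp1, 6 MHC class II genes and 10 cell cycle genes. The study had already reported Il1a as high with Tnf and these Cxcl genes in a cluster of the same WT cells. It gave MHC class II and cell cycle genes for other clusters of them. A high Il1a in the chemokine and TNF ranking therefore repeats what was known of this library and is not independent support. In the cells highest for the chemokine and TNF genes, 4 of the 7 members were at least 1.5-fold higher, against 2.66% of all 5939 genes tested, and none was 1.5-fold lower, against 6.45%. The median over the members was 1.83-fold, and over all genes 0.953-fold. Il1a showed the largest difference among the members, with 2.55 UMIs per 10000 (2.21 to 2.93) in the top cells and 0.429 (0.380 to 0.482) in the others, or 5.95-fold (4.93 to 7.16), and 4 genes of the library had a larger one. It was found in 44.7% of the top cells and 13.3% of the others.

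Il1b followed with 5.01 per 10000 (4.53 to 5.53) against 1.56 (1.47 to 1.66), or 3.21-fold, and was found in 54.4% and 30.1% of cells. Nlrp3 stood at 2.87 (2.51 to 3.27) against 1.37 (1.28 to 1.46), or 2.10-fold, and Il1rn at 2.97 (2.60 to 3.38) against 1.62 (1.53 to 1.73), or 1.83-fold. The antagonist was therefore also higher in these cells, but by less than either agonist, with an interval of 1.58 to 2.11 against 2.85 to 3.61 for Il1b. Il18 stood at 13.1 in the top cells, within the interval of 12.7 to 13.3 in the others. Casp1 (1.05-fold, 0.716 to 1.49) and Il1rap (1.09-fold, 0.694 to 1.64) had intervals that included 1.

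**Figure D4:**
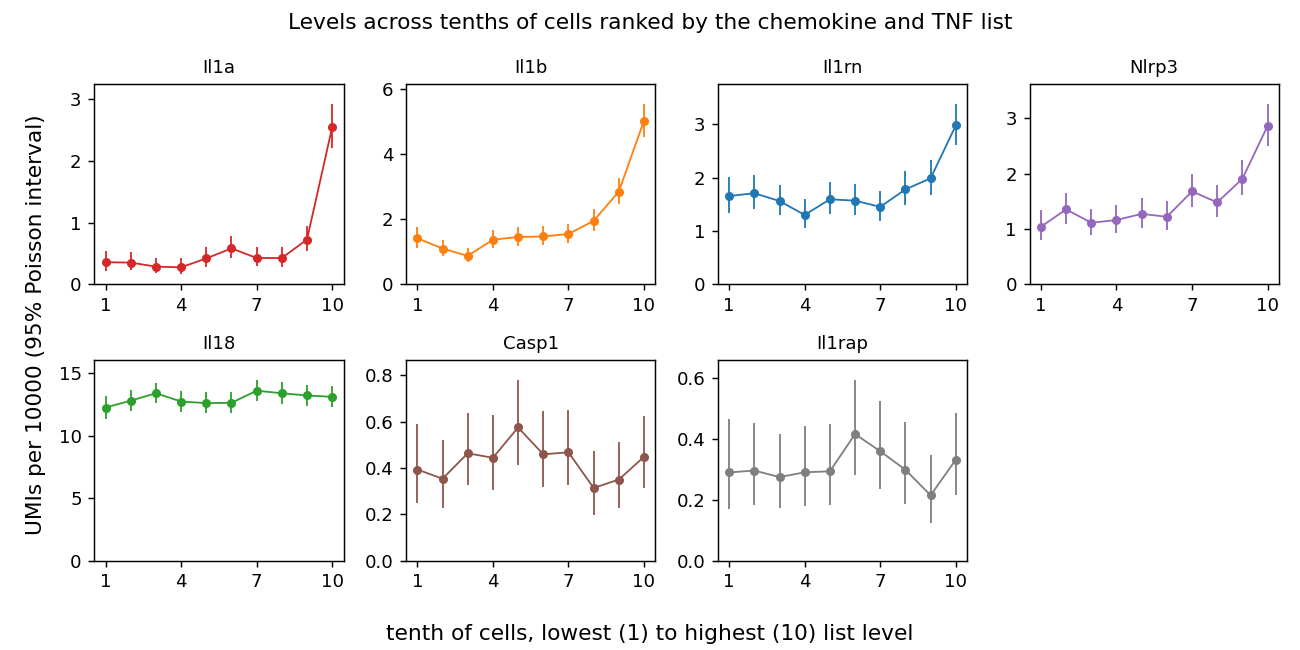
Level of each member (UMIs per 10000, 95% Poisson interval) in 10 equal groups of cells from the lowest to the highest summed level of the chemokine and TNF genes. The 367 cells at 0 lie at the left, and the order among them is arbitrary. Il1a stays at or below 0.726 in groups 1 to 9 and reaches 2.55 in group 10, Il1b reaches 2.85 in group 9 and 5.03 in group 10, and Il18 lies between 12.3 and 13.6 throughout.

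Median depth was 3611.5 UMIs in the top cells and 3245 in the others. After every cell of at least 2000 UMIs was thinned to 2000, which left out 25 top cells and 274 others, Il1a was found in 30.3% and 8.05%, Il1b in 42.5% and 21.2%, Nlrp3 in 40.9% and 23.5%, and Il1rn in 39.8% and 26.0%. Thus each of these shares was also higher in the top cells at equal depth. The summed markers of neutrophils, which also make Il1b and Il1rn (3 of 9 markers listed), were at 0.395 per 10000 in the top cells and 0.502 in the others, and the dendritic cell markers had 0 UMIs in the top cells. Without the 369 cells with any UMI of the neutrophil, dendritic cell or interstitial macrophage markers the differences were as large, at 6.18-fold for Il1a, 3.46-fold for Il1b, 2.06-fold for Nlrp3 and 1.94-fold for Il1rn. The monocyte markers, mostly Fn1, stood at 3.89 against 3.19, and the AM markers at 332 against 315.

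By the number past 1.5-fold, the other genes of the pathway were near the background. The 4 lists of IL-1 family ligands, their receptors, receptor signalling and inflammasome components held 21 genes besides the members that were found in at least 5% of cells. Of these, 1 was at least 1.5-fold higher in the top cells, against 2.66% of all genes, and 2 were 1.5-fold lower, against 6.45%, with a median of 1.00-fold against 0.953-fold. Casp4, which encodes the caspase that senses cytosolic lipopolysaccharide, was at 1.53-fold (0.901 to 2.49), and Naip5 and Naip6, receptors for bacterial flagellin, were at 0.659-fold (0.406 to 1.02) and 0.527-fold (0.207 to 1.12), so that each interval included 1. Pycard, which encodes the adaptor that joins NLRP3 to caspase-1, was at 1.25-fold (0.988 to 1.56), and Myd88, the adaptor of the IL-1 receptor, at 1.22-fold (0.865 to 1.69). Casp8 did not reach 1.5-fold, but its interval lay above 1, at 1.24-fold (1.02 to 1.49). It was found in 48.1% of the top cells and 37.4% of the others. Of the ligand genes, those other than the members were not analysed here.

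The balance moved with the same ranking. Agonists made up 71.8% of the UMIs (68.6 to 74.8) in the cells highest for the chemokine and TNF genes and 55.0% (53.0 to 57.1) in the others. Among the top cells 56 held the agonist alone, 25 the antagonist alone and 89 both, and among the others 399, 384 and 323. Cells with Nlrp3 also had a larger agonist share, 63.8% (61.3 to 66.2) against 55.3% (52.8 to 57.7) in cells without it. Outside the top cells, none of the 4 pairs with joint detection above 1 kept an interval above 1, although each ratio stayed above 1. These intervals are wide, so joint detection beyond that by depth is not shown to be absent there. The ratio was 1.15 (0.962 to 1.37) for Il1a and Il1rn, 1.09 (0.892 to 1.31) for Il1a and Nlrp3, 1.10 (0.979 to 1.24) for Il1b and Il1rn and 1.11 (0.983 to 1.26) for Il1b and Nlrp3. Il1a and Il1b were found together there in 80 cells against 81.2 by depth (0.985, 0.784 to 1.22).

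**Figure D5:**
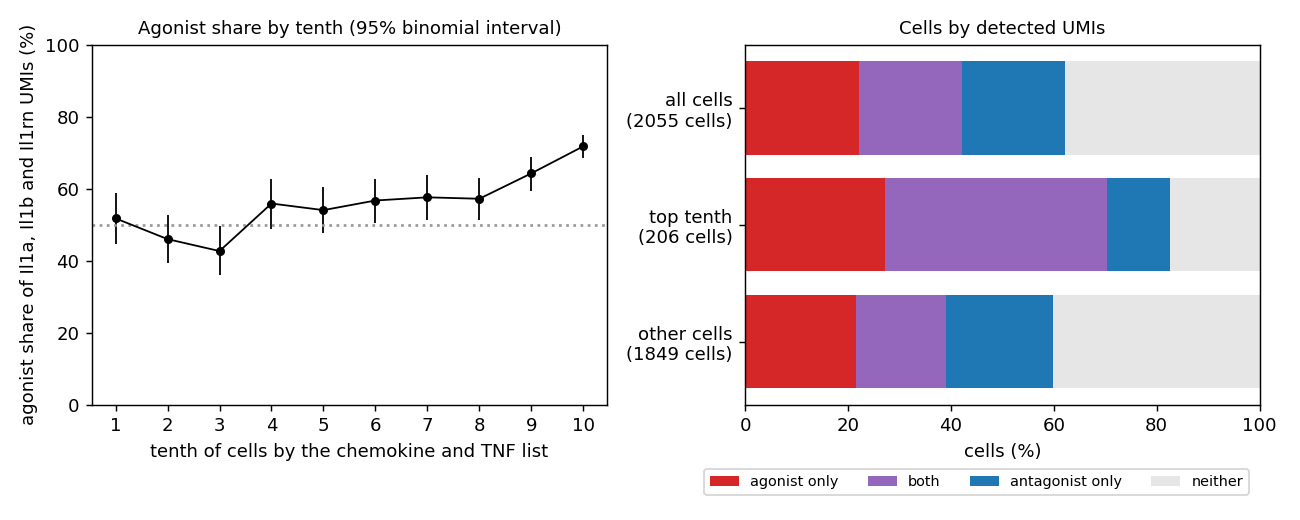
Left, agonist share of the UMIs of Il1a, Il1b and Il1rn (%, 95% binomial interval) in 10 equal groups of cells by the chemokine and TNF genes, with a dotted line at 50%. It lies between 42.7% and 57.6% in groups 1 to 8 and at 64.3% and 71.8% in groups 9 and 10. Right, percentage of cells with agonist UMIs only, both, antagonist UMIs only or neither, in all 2055 cells, the 206 cells highest for the list and the other 1849.

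The immediate early genes, which encode transcription factors and feedback regulators induced within minutes of stimulation, picked out partly the same cells, since 82 cells were in the top 10% for both lists. In the cells highest for them 3 of 7 members were at least 1.5-fold higher, against 3.69% of 5934 genes, and none was 1.5-fold lower, against 5.93%. Il1a was 3.85-fold higher (3.13 to 4.71), Nlrp3 2.43-fold (2.08 to 2.82) and Il1b 1.92-fold (1.66 to 2.22). Il1rn was at 1.24-fold (1.03 to 1.47), Il18 at 0.920-fold (0.855 to 0.989), and Casp1 and Il1rap had intervals that included 1. The agonist share was 71.7% (67.6 to 75.6) in these cells and 57.1% (55.2 to 59.0) in the others. These cells were shallower than the others, with a median of 2942 UMIs against 3308.

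Both rankings were therefore crossed, and Nlrp3 and the cytokines gave different patterns. In the 124 cells high for the immediate early genes only, Il1a (0.539 per 10000, 0.329 to 0.832), Il1b (1.51, 1.14 to 1.96) and Il1rn (1.62, 1.23 to 2.08) had intervals that held the levels of the 1725 cells high for neither list, which were 0.422, 1.56 and 1.63. Nlrp3 stood at 2.56 (2.07 to 3.13) in those 124 cells against 1.29 (1.20 to 1.39) in the cells high for neither. Those 124 cells were shallower, with a median of 2658 UMIs against 3278. The level of Nlrp3 was highest in the shallowest cells of the library (1.93), and the part of depth here was not tested. In the 124 cells high for the chemokine and TNF genes only, Il1a was at 1.76, Il1b at 4.51, Il1rn at 3.08 and Nlrp3 at 2.07. In the 82 cells high for both, Il1a reached 3.84 (3.17 to 4.62), Nlrp3 4.18 (3.48 to 4.99) and Il1b 5.83 (5.00 to 6.77), while Il1rn, at 2.80 (2.23 to 3.47), lay within the interval of the cells high for the chemokine and TNF genes only (2.60 to 3.61). Thus Nlrp3 was above the cells high for neither list in each of these groups, whereas Il1a, Il1b and Il1rn were so in both groups high for the chemokine and TNF genes.

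In the cells highest for MHC class II genes, 1 of 7 members passed 1.5-fold, against 1.57% of all genes, and none was lower, against 6.36%. This was Il1b, at 2.77 per 10000 (2.41 to 3.17) against 1.84 (1.73 to 1.94), or 1.51-fold (1.30 to 1.74). It fell to 1.26-fold with the top 20% of cells, to 1.29-fold with another score of the list and to 1.47-fold without cells that had a UMI of the neutrophil, dendritic cell or interstitial macrophage markers, so that its place above 1.5-fold rested on the settings. Casp1 was at 1.33-fold (0.934 to 1.84), Nlrp3 at 0.793-fold (0.635 to 0.979), and Il1a, Il1rn, Il18 and Il1rap were within 0.945-fold to 1.12-fold. With at most 5% mitochondrial UMIs, however, Il1a was at 0.659-fold. The summed dendritic cell markers were at 0.131 per 10000 in these cells and 0.0403 in the others, and the interstitial macrophage markers at 0.274 (0.170 to 0.419) and 0.160 (0.130 to 0.193). The monocyte markers, mostly Fn1, were at 4.15 (3.71 to 4.63) and 3.16, in 67.0% and 52.1% of cells, and their part in the Il1b difference was not tested.

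No member passed 1.5-fold in either direction in the cells highest for cell cycle genes, against 7.73% of all genes higher and 5.2% lower. Il18 was at 10.5 per 10000 (9.81 to 11.2) against 13.3 (13.1 to 13.6), or 0.787-fold (0.733 to 0.844), although these cells were deeper (median 3928.5 UMIs against 3234) and the level of Il18 was higher in deeper cells. The AM markers moved the same way, at 280 per 10000 against 322. The agonist share was 57.9% (52.4 to 63.2) in these cells and 59.6% (57.8 to 61.4) in the others.

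The 64 cells with 5 or more Il1b UMIs lay only partly among the cells highest for the chemokine and TNF genes. Of these, 31 were among the 206 cells highest for the chemokine and TNF genes, 11 among those highest for MHC class II genes, with 5 in both, and 27 in neither. Their summed chemokine and TNF level was 74.5 per 10000 (71.4 to 77.7) and their MHC class II level 35.4 (33.3 to 37.6), against 13.6 and 11.3 in the 1387 cells with no Il1b UMI. Il1a stood at 2.78 (2.21 to 3.45) in them against 0.532 (0.468 to 0.603), Nlrp3 at 2.64 against 1.32 and Il1rn at 2.81 against 1.57, whereas Il18 was at 14.4 (13.1 to 15.9) against 12.99. They were deep cells, with a median of 4502 UMIs against 3091. Neutrophil markers were found in 8 of them (12.5%, against 12.8%), at a summed level of 1.08 (0.742 to 1.53) against 0.478. That level rests on 32 UMIs in the 8 cells. Of the 64 cells, 52 had no UMI of the neutrophil, dendritic cell or interstitial macrophage markers. The monocyte markers, mostly Fn1, stood at 4.85 (4.08 to 5.71) in the 64 cells against 2.81 (2.66 to 2.96) and were found in 73.4% against 49.5%, and the dendritic cell markers stood at 0.169 (0.0550 to 0.395) against 0.0456. Their part in the Il1b level was not tested. The AM markers stood at 324 per 10000 in the 64 cells against 315.

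Cells with 2 or more Il1a UMIs lay mostly among those high for the chemokine and TNF genes. Of 62 such cells, 39 (62.9%, 49.7 to 74.8) were among the 206 cells highest for these genes, 26 among those highest for the immediate early genes and 7 among those highest for MHC class II genes. In the 11 cells with 5 or more Il1a UMIs the chemokine and TNF level was 190 per 10000 (178 to 202), against 13.7 in cells without Il1a.

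Finally, the 5 genes most like each member were taken by the correlation of log values over the 2055 cells among 5944 genes, as a description, since cells of 1 library share their depth and processing. For Il1a these were the neutrophil chemoattractant Cxcl2 (r = 0.270), Nfkbiz, which encodes a nuclear regulator of NF-kB (0.265), the immediate early factor Egr1 (0.263), Tnf (0.213) and Cxcl1 (0.211). Il1b had Cxcl2 (0.227), the growth factor gene Ereg (0.185), Nfkbiz (0.185), Egr1 (0.176) and Cxcl1 (0.169), and Nlrp3 had Egr1 (0.209), Nfkbiz (0.187), Cxcl2 (0.166), Tnf (0.155) and the AP-1 gene Junb (0.150). The agonists and the inflammasome sensor thus had Cxcl2, Nfkbiz and Egr1 in common among their nearest genes, although by Spearman correlation Cxcl2 was not among the nearest 5 of Nlrp3.

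Il18 had other neighbours, all of them abundant genes. They were the tetraspanin gene Cd9 (0.276), the actin-binding gene Pfn1 (0.227), the ribosomal protein gene Rpl10 (0.222), S100a10 (0.221) and the ADP/ATP carrier gene Slc25a5 (0.217), found in 84.2% to 100% of cells, and after regression on depth these values were 0.222, 0.164, 0.140, 0.159 and 0.139. For Il1rn the highest value was 0.126 (Cxcl2) and Il1b was among the nearest 5 at 0.115. By Spearman correlation 2 of these 5 were kept, and Cxcl2 was not 1 of them. Casp1 and Il1rap had no gene above 0.114 and 0.0815. Values this low, those of Il1rn among them, do not name a pattern in such sparse counts.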

How the data were processed

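Single-cell RNA-seq of AMs from 1 WT mouse was analysed. The authors aligned reads to mm10 with Cell Ranger and normalized with LogNormalize of Seurat, and deposited for each gene and cell the natural log of 1 plus the UMIs per 10000 UMIs of the cell. The authors also deposited a scaled score after regression on UMIs and mitochondrial content, which was used here only as an alternative for likeness of genes. The deposited natural log values gave whole UMIs for 100% of values (tolerance 0.001), 7222978 in all. Whether the counting used strand is not given in the sources used here. Genes on the opposite strand overlap Il1a, Il1b, Il18 and Il1rap, and the 2 of them that are listed, Bco2 and Tex12, had 4 UMIs each. No 98-base sequence in the last 300 bases of a member occurred in a transcript of another gene. No doublet caller was run, and no cell was left out of the main values.

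The members, gene lists and comparisons were chosen with earlier results of these data known. Named genes are the 7 members, genes of the IL-1 pathway lists, the lists that rank cells or check the cell type, and the 5 genes nearest each member among genes with a UMI in at least 5% of cells. Shares have exact Clopper-Pearson and levels exact Poisson intervals of 95%, and the interval of a fold is that of the binomial split of the UMIs of the gene between both sides. Intervals from UMIs take them as independent and are too narrow where a few cells hold many UMIs of a gene. There is no replicate and no test. The interval of a joint count is the binomial interval of the number of cells with both genes. It does not fix the number of cells with each gene and is therefore wide. Lists were scored by their summed UMIs per 10000, and a fold of 1.5 was used for counts of genes. Promoters of all 7 members were taken from RefSeq on GRCm38.p6. Alternatives were 2 UMIs for detection, at most 5% mitochondrial UMIs, thinning to 2000 UMIs, other expected values, top 20% of cells and other scores. Leaving out the Jchain cell or cells with markers of other types was added after seeing the data. Steps were tested on simulated cells, with independently drawn UMIs for the folds. Python 3.11.15 with numpy 2.4.6, scipy 1.17.1, pandas 2.3.3 and matplotlib 3.10.9 was used.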

Additional observations from a re-analysis of the deposited data

How the results depend on the processing

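With at least 2 UMIs for detection the shares of cells were 3.02% for Il1a, 13.3% for Il1b, 14.0% for Il1rn, 81.1% for Il18, 1.85% for Casp1, 11.6% for Nlrp3 and 0.827% for Il1rap. Thinned to 2000 UMIs they were, in the same order, 10.3%, 23.4%, 27.4%, 89.5%, 7.78%, 25.3% and 5.97%, and the observed over expected share of Il1b was 0.734. With at most 5% mitochondrial UMIs the share for Il18 was 94.6%, and with expected values from the mean count within 10 bins of depth its observed over expected share was 0.976. The agonist share was 55.0% without the cells highest for the chemokine and TNF genes. The fold of Il1a in those cells was 4.24 with the top 20% of cells, and that of Il1b was 2.77 with the list scored from log values divided by their standard deviation. The cause of these changes was not tested beyond what each setting itself leaves out. With at most 5% mitochondrial UMIs the fold of Il1a in the cells highest for MHC class II genes was 0.659, against 1.01 in all cells. No member that was at least 1.5-fold higher for any list turned to lower under any setting. Of 63 values of joint detection under 3 settings, all lay within the interval of the value given. With genes found in at least 3 cells as background, 10.7%, 12.7%, 11.2% and 19.1% of genes were 1.5-fold higher for the chemokine and TNF, immediate early, MHC class II and cell cycle lists. Of 28 repeats of the nearest 5 genes, 18 shared at least 4 of 5 with the list given. No paired analysis was possible because there is 1 library. A median of 3278 UMIs per cell limits what can be said of Casp1 and Il1rap, where a cell without a UMI is not shown to lack the transcript.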
